A study of Homo sapiens with 3 samples.

Results

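The genes described here encode the proteins of the cytosolic and of the mitochondrial ribosome. Members were chosen by symbol alone, as protein-coding genes of the RPL, RPLP or RPS series (without the RPS6K kinases and without pseudogenes) for the cytosolic family and of the MRPL or MRPS series for the mitochondrial family. This gave 169 genes in the RefSeq gene table, of which 166 had a probe on the array, among 19740 named genes. The cytosolic family comprised 89 of them with 162 probes and the mitochondrial family 77 with 89 probes. RPL17-C18orf32, RPS10-NUDT3 and RPSA2 had no probe. The study exposed Huh7 cells, an established human hepatoma line, to chlorogenic acid (CA), a plant polyphenol studied for its power to make tumor cells differentiate. The 3 groups, which were cells without treatment, cells given CA at 50 μM and cells given CA at 100 μM, both for 24 h, were measured on 1 one-colour Agilent array each, and cells were trypsinized after treatment. With 1 array per group no difference between groups has a replicate check, and no test across samples was made. A log2 ratio below is that of the processed signal of a CA array over the untreated array after each array was divided by its 75th percentile. Ratios at CA 50 μM are given before those at CA 100 μM, and signals in the order untreated, CA 50 μM, CA 100 μM. Ratios of at least 0.32 in size, which is a signal 25% brighter on one array than on the other, were counted in each direction.

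Ribosomes make all cellular protein. Those of the cytosol consist of a large subunit, which carries the peptidyl transferase center and the flexible stalk of the P proteins, and of a small subunit, which decodes the mRNA. Most cytosolic ribosomal protein mRNAs begin with a C followed by an unbroken run of pyrimidines, the terminal oligopyrimidine (TOP) motif, through which mTORC1 and LARP1 adjust their translation to growth conditions. Mitochondria hold a separate ribosome, which translates the few membrane proteins encoded in mitochondrial DNA, and its proteins are encoded in the nucleus and imported.

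The families differ at the start of their transcripts, which is shown here for members that return in the results. The windows run 5′ to 3′, from RefSeq on GRCh38.p14, and hold 15 bases before and 15 bases from the annotated start. The capitals mark the run of C and T that begins with a C at the start itself, and a window without capitals has no such run. The first group holds the small-subunit proteins RPS12 and RPS6 and the large-subunit proteins RPL34, RPLP1 and RPLP2, which were lower on the CA arrays and begin with long runs.
RPS12, chr6:132814554-132814583, + strand: gcgtgcggatgaggcCTCTTTCCCTgccgc
RPS6, chr9:19380222-19380251, - strand: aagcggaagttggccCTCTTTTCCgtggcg
RPL34, chr4:108620561-108620590, + strand: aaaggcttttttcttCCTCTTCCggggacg
RPLP1, chr15:69452803-69452832, + strand: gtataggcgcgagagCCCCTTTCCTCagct
RPLP2, chr11:809952-809981, + strand: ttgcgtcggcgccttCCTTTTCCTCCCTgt
The next pair shows RPL36A beside its paralogue RPL36AL, which was lower as well and has a run of only 3 pyrimidines.
RPL36A, chrX:101390996-101391025, + strand: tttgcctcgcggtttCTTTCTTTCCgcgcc
RPL36AL, chr14:49620612-49620641, - strand: ctgtttcttccctttCCTgttaggcgagag
RPS28 is shown because it was among the lowest members at CA 100 μM. Its annotated start has no C, but a run of pyrimidines begins just after it.
RPS28, chr19:8321481-8321510, + strand: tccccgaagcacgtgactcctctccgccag
The last group holds the mitochondrial proteins with the lowest and the highest ratio at CA 50 μM, MRPL57 and MRPL38, and the bright MRPS24.
MRPL57, chr13:21176643-21176672, + strand: ccgcgagacgggtgcgcttacgccacggcg
MRPL38, chr17:75904870-75904899, - strand: gcagtgtcgcaggccggagggaagatggcg
MRPS24, chr7:43869503-43869532, - strand: cgcgctgtggtacgtCCCgcgctccgcttg

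The promoter table held 140 of the 166 members. A start on C followed by at least 4 further pyrimidines, counted when any listed start of a gene had it, was found in 46 of 62 cytosolic subunit genes (74.2%) and in 6 of 69 mitochondrial ones (8.70%), against 6.24% of 15843 protein-coding genes in the table. The large and small cytosolic subunits had it alike, in 28 of 38 and 18 of 24 genes, whereas 2 of the 8 cytosolic paralogues with an entry had it. Another 2 motifs, in promoters that run from 250 bases before to 50 bases after the start, were searched on both strands, and their matches can share no more than an end base. The ETS core CCGGAAG, to which GABPA and its relatives bind, was present in 35.5% of the cytosolic and 43.5% of the mitochondrial subunit genes, against 16.5% of the protein-coding genes. The NRF1 core GCATGCG was present in 8.06% and 10.1%, against 6.07%. These are matches of letters, not binding sites.

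**Figure D1:**
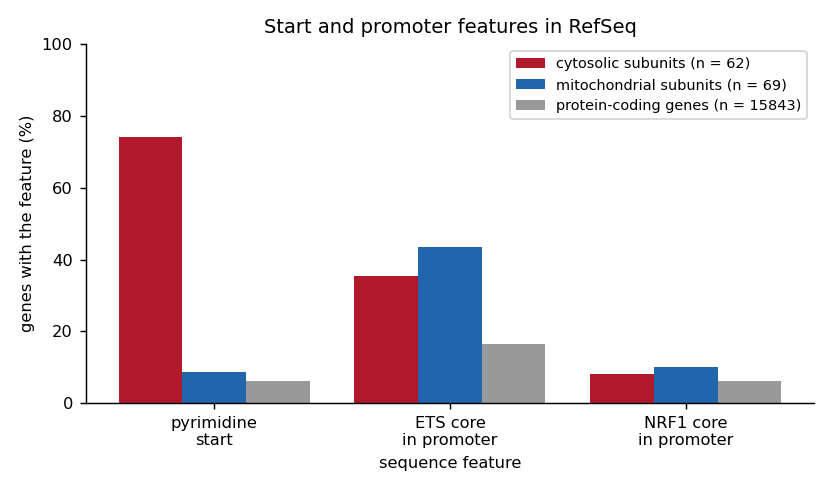
Share of genes (%, from 0 to 100) that have a pyrimidine start, an ETS core or an NRF1 core in the RefSeq promoter table, for cytosolic subunits (red, n = 62), mitochondrial subunits (blue, n = 69) and protein-coding genes (grey, n = 15843). The pyrimidine start was found in 74.2% of the cytosolic and 8.70% of the mitochondrial genes, whereas the shares with an ETS core were closer, at 35.5% and 43.5%.

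Of the 166 genes, 163 had a probe well above background on all 3 arrays (86 cytosolic and 77 mitochondrial, with 240 probes in all), as had 14546 genes of the whole array. The spot of RPL14 on the untreated array had an outlier flag, and its signals at CA 50 and 100 μM were 39649 and 39233 intensity units. RPS4Y1 and RPS4Y2, paralogues of RPS4X, did not rise well above background on any of the arrays. No member had a saturated spot. The 75th percentile of the arrays was 1059, 1207 and 1249 units, so that scaling lowered the log2 ratios by 0.19 and 0.24. The label of a hepatoma line was checked against hepatocyte markers, of which ALB and AFP had 109428 and 95490 units in untreated cells. Of the 7 hepatocyte markers listed, 6 were measured, and HNF4A was not. The 6 measured of 8 markers of leukocytes, endothelium and fibroblasts had signals of 17.3 to 610 units over the arrays, and COL1A1 and DCN were not measured. Ratios of the 6 hepatocyte markers had medians of -0.20 and -0.33 at CA 50 and 100 μM, with 4 and 6 of them below 0. APOA1 (0.16 and -0.0038) and SERPINA1 (0.08 and -0.0069) were above 0 at CA 50 μM and near 0 at CA 100 μM. These markers were bright, with a median mean scaled signal of 5.50 (log2). Their medians lay on the same side of 0 as those of the cytosolic ribosomal protein genes, and their part in that result was not tested.

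The cytosolic family was far brighter than the mitochondrial one. The median gene had 61863, 57117 and 61205 intensity units in the cytosolic family, and 4043, 4509 and 4568 units in the mitochondrial family. Each gene was represented by its brightest measured probe, and signals of different probes are not amounts of transcript, since probes bind with different strength. Of the 50 brightest genes of the array, 29 were cytosolic ribosomal protein genes, as were 48 of the 100 and 66 of the 200 brightest, and none was mitochondrial. RPL19, a protein of the large subunit, was the brightest member, at 137764 units in untreated cells. The mitochondrial signals ran from 361 to 21825 units over the arrays, the highest being that of MRPS24 at CA 100 μM.

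**Figure D2:**
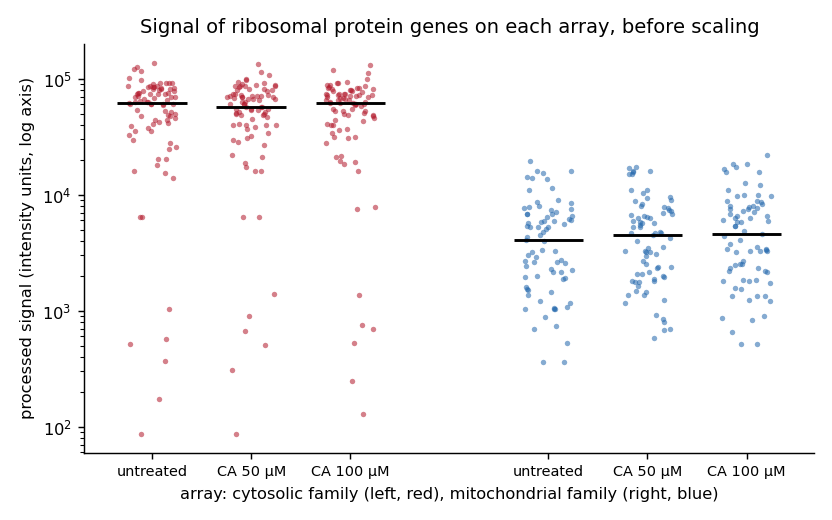
Processed signal of each measured gene on each array before scaling (intensity units, log axis), for the cytosolic family (red, 86 genes) and the mitochondrial family (blue, 77 genes). Each point is 1 gene and the black bar is the median, which was 61863, 57117 and 61205 units in the cytosolic and 4043, 4509 and 4568 units in the mitochondrial family.

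The cytosolic genes were slightly lower on both CA arrays than on the untreated array after scaling, and the mitochondrial genes lay near all other genes. The median log2 ratio of the 86 cytosolic genes was -0.23 for CA 50 μM (quartiles -0.33 and -0.12) and -0.23 for CA 100 μM (quartiles -0.32 and -0.11), but it was near 0 after quantile normalization, at -0.03 and 0.00. Quantile normalization gives all arrays the same ranked values. Cytosolic genes made up 48 of the 100 brightest genes, so this step can remove a shift shared by them by construction. The 77 mitochondrial genes had medians of -0.05 (quartiles -0.20 and 0.08) and -0.01 (quartiles -0.08 and 0.05), which became 0.01 and 0.03 after quantile normalization. All 14546 genes had medians of -0.04 and -0.03. Without scaling, which moves every gene alike by 0.19 and 0.24, the medians were -0.05 and 0.0044 for the cytosolic family, 0.14 and 0.23 for the mitochondrial family and 0.15 and 0.21 for all genes, so that the distances between them were kept. The cytosolic median was thus 0.18 below the mitochondrial one at CA 50 μM and 0.22 below it at CA 100 μM on the log2 scale, a difference that does not depend on the scaling factor of an array. It kept its sign in every alternative processing, but shrank to 0.04 and 0.03 after quantile normalization.

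Counts of genes gave the same picture on this scale. Below 0 were 78 (90.7%) and 76 (88.4%) of the 86 cytosolic genes, against 56.2% and 57.7% of all genes, and 43 and 44 of the 77 mitochondrial genes. Without scaling, 54 and 42 cytosolic genes (62.8% and 48.8%) and 21 and 2 mitochondrial genes (27.3% and 2.60%) were below 0, against 25.7% and 12.3% of all genes. At CA 50 μM, 24 cytosolic genes (27.9%) and 7 mitochondrial genes (9.09%) were lower by at least 0.32, which held for 10.3% of all genes. At CA 100 μM, 22 cytosolic genes (25.6%) and no mitochondrial gene were lower by that much, against 6.67% of all genes. In the other direction, 2 cytosolic and 3 mitochondrial genes were higher by at least 0.32 at CA 50 μM, against 13.2% of all genes, and 1 cytosolic gene and no mitochondrial gene at CA 100 μM, against 5.8% of all genes. No member of either family changed 2-fold, which 0.976% of all genes did at the lower and 0.564% at the higher dose. The changes of single members were therefore small, and quantile normalization brought the cytosolic counts of lower genes from 24 to 3 at CA 50 μM and from 22 to 2 at CA 100 μM. The share of all genes past the limit was not counted after that step.

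Both ratios share the untreated array, so that a high or low value there moves both. With that in mind, 74 cytosolic genes (86.0%) were below 0 at both doses and 6 were above (6.98%), against 45.3% and 31.5% of all genes. For 16 of them (18.6%) the ratio passed the limit of 0.32 on the lower side at each dose, against 3.58% of all genes. These were RPL10A, RPL11, RPL23A, RPL27, RPL34, RPL36A, RPL36AL, RPLP1 and RPLP2 of the large-subunit series and RPS2, RPS10, RPS12, RPS15A, RPS23, RPS28 and RPS29 of the small-subunit series. This list rests on the brightest probe. Of the 9 genes in it with several measured probes, RPS28 was the 1 whose probes all passed the limit at both doses, and the median over probes was -0.08 and -0.06 for RPS10 and 0.06 and -0.05 for RPS2. In the mitochondrial family 35 genes (45.5%) were below 0 at both doses, 25 (32.5%) were above and none passed this limit at each dose. Between the CA arrays themselves, the median log2 ratio of CA 100 μM over CA 50 μM was -0.02 in the cytosolic and 0.05 in the mitochondrial family.

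The subunits of the cytosolic ribosome did not differ much from each other, and the paralogues stood apart. The 45 genes of the large subunit had median log2 ratios of -0.24 and -0.26 at CA 50 and 100 μM, and the 31 genes of the small subunit had -0.26 and -0.23. Of these, 44 and 42 of the large and 30 and 31 of the small subunit were below 0. The 8 measured paralogues, which encode closer or more distant relatives of a ribosomal protein, had medians of -0.08 and 0.03. They were dimmer, with a median mean scaled signal of 2.55 (log2) against 5.78 for the 76 subunit genes together. The remaining 2 names of the family encode no ribosomal protein of their own, RPL36A-HNRNPH2 being a readthrough gene and RPS19BP1 a protein that binds RPS19. In the mitochondrial family the 49 genes of the MRPL series had medians of -0.03 and 0.01 and the 28 genes of the MRPS series -0.07 and -0.04. Of these, 27 and 23 of the former and 16 and 21 of the latter were below 0. The 2 series follow the symbols, which do not always give the subunit in which a protein sits.

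**Figure D3:**
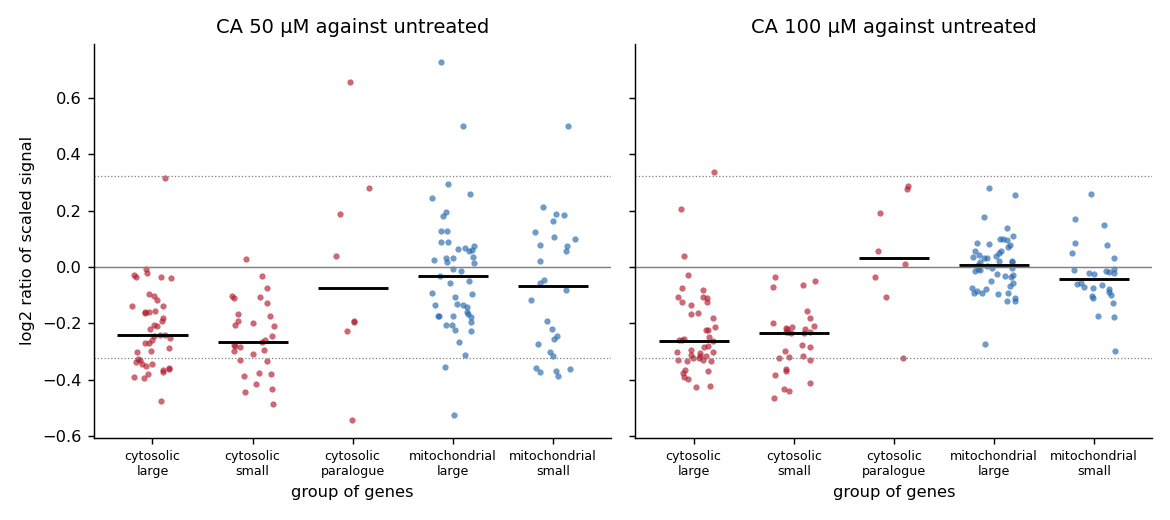
Log2 ratio of the scaled signal of CA 50 μM (left) and CA 100 μM (right) over untreated for each measured gene, in 5 groups, with cytosolic genes in red and mitochondrial genes in blue. The mitochondrial groups named large and small are the MRPL and MRPS series of symbols. Each point is 1 gene, black bars are medians and dotted lines mark 0.32 in either direction; most large and small cytosolic subunit genes lay below 0 under this scaling (44 of 45 and 30 of 31 at CA 50 μM), which quantile normalization moved to a family median of -0.03.

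Among the small-subunit genes, RPS12 had 39042, 31828 and 34132 intensity units. Its raw signal was thus lower on both CA arrays, and the log2 ratios were -0.48 and -0.43, the second from a spot in an area of the CA 100 μM array where dim probes were bright on that array alone. RPS28 had 101616, 88656 and 88414 units, with ratios of -0.39 and -0.44, and its second probe gave -0.36 and -0.43. Both RPS28 probes were thus lower at both doses. RPS2, which sits near the mRNA entry site, had 115865, 99160 and 99015 units and ratios of -0.41 and -0.46 by its brightest probe. Its other probes did not follow at CA 50 μM, since the 3 probes ranged from -0.41 to 0.37 there and from -0.46 to 0.15 at CA 100 μM. RPS6, the subunit protein phosphorylated by S6 kinase, was measured by 10 spots per array at 74946, 69430 and 73046 units, and its log2 ratios over 9 spots were -0.30 ± 0.055 and -0.28 ± 0.064 (SD between spots). RPS3 was the single small-subunit gene above 0 at CA 50 μM, with 13882, 16134 and 15963 units and ratios of 0.03 and -0.04.

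In the large subunit, RPL34 had 69933, 57366 and 61383 units and log2 ratios of -0.48 and -0.43, so that it was lower on both CA arrays before scaling as well. Its second probe, also bright, gave -0.18 and -0.12. The stalk proteins bind the translation factors. RPLP1 had 90964, 80210 and 80100 units (ratios -0.37 and -0.42), and RPLP2 had 126782, 114352 and 118978 units (-0.34 and -0.33). The RPLP2 ratios became -0.89 and -0.89 after quantile normalization and -0.12 and -0.13 after cyclic loess. RPLP0, the base of the stalk, had 83029, 87405 and 77917 units and ratios of -0.12 and -0.33, the first of which was above 0 in 3 scaled alternatives, up to 0.11. Its dimmer probe, printed 10 times, gave 0.0058 ± 0.066 and -0.11 ± 0.055 (SD over 10 and 9 spots), so that this gene had no settled direction at CA 50 μM. RPL11, which binds MDM2 when ribosome assembly is disturbed, had 78762, 69902 and 71622 units and ratios of -0.36 and -0.38.

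Other large-subunit genes lay near 0 or were poorly measured. RPL29 had 25651, 28680 and 31083 units and log2 ratios of -0.03 and 0.04. RPL27A was represented by a single probe of 86.3, 86.8 and 128 units, far below the other subunit genes, and its ratios were -0.18 and 0.34, with the CA 100 μM spot in a disturbed area. This probe says little of RPL27A. RPL3, which reaches toward the peptidyl transferase center, had 45690, 51279 and 50078 units and ratios of -0.02 and -0.11, and both were above 0 in some scaled alternatives, up to 0.17 and 0.07.

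The paralogues were described beside their parent genes. RPL36AL, a retrocopy of RPL36A, had 20284, 15891 and 19129 units and the lowest ratio of the family at CA 50 μM, -0.54, with -0.32 at CA 100 μM, and RPL36A itself had 74482, 65335 and 69744 units with -0.38 and -0.33. Both members of this pair were lower. RPL22 had 20513, 21245 and 21352 units (ratios -0.14 and -0.18) and RPL22L1 had 6428, 6423 and 7881 units (-0.19 and 0.06). RPL26 had 53512, 46414 and 52731 units (-0.39 and -0.26) and RPL26L1 had 6399, 6376 and 7596 units (-0.19 and 0.0093). RPS27L, a target of p53, had 17890, 17411 and 19609 units (-0.23 and -0.11) beside RPS27 at 91813, 93206 and 92225 units (-0.17 and -0.23). In these pairs the parent and the copy were both below 0 at CA 50 μM, whereas the copies RPL22L1 and RPL26L1 were slightly above it at the higher dose.

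The dim paralogues RPL3L, RPL39L and RPL7L1 had ratios above 0 at both doses. RPL3L, the form of striated muscle, had 173, 310 and 248 units and the highest ratio of the family at CA 50 μM, 0.66, with 0.29 at CA 100 μM. RPL39L, known from germ cells and tumors, had 513, 666 and 691 units (0.19 and 0.19), whereas RPL39 had 87354, 80910 and 84706 units (-0.30 and -0.28). RPL7L1 had 369, 510 and 527 units (0.28 and 0.28), whereas RPL7 had 40397, 38496 and 43736 units (-0.26 and -0.12) by its brightest probe. The 3 RPL7 probes ranged from -0.40 to 0.23 at CA 50 μM and from -0.38 to 0.23 at CA 100 μM. RPL10L, a retrocopy used in the testis, had 16023, 18778 and 18461 units (0.04 and -0.03) and RPL10 had 81376, 78268 and 82740 units (-0.25 and -0.21). The 3 RPL10 probes ranged from -0.25 to 0.05 at CA 50 μM and from -0.25 to -0.13 at CA 100 μM. RPL10L and RPL10 are near-identical, so their probes may share targets. RPS4X had 69461, 69293 and 69850 units (-0.19 and -0.23). The readthrough RPL36A-HNRNPH2 had 572, 901 and 754 units (0.47 and 0.16), and RPS19BP1 had 1043, 1394 and 1354 units (0.23 and 0.14).

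Among the mitochondrial genes the changes at CA 50 μM ran in both directions and were smaller at CA 100 μM, where the SD over genes was 0.10 in place of 0.22. The SD was smaller there for all genes too, at 0.25 in place of 0.31, and for the 2790 other genes between the quartiles of mitochondrial signal, at 0.14 in place of 0.22. MRPL38, a protein of the large subunit, had 361, 682 and 517 units, with log2 ratios of 0.73 and 0.28. MRPL12, the mitochondrial counterpart of the bacterial stalk protein, had 527, 851 and 659 units (0.50 and 0.08), and its second probe gave 0.55 and 0.09. MRPS18A had 364, 586 and 513 units (0.50 and 0.26). In all of these the CA 50 μM array was highest, and their signals lay in the lower part of the range of the family. MRPL23 had 1083, 1477 and 1525 units, with 0.26 at either dose.

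On the lower side, MRPL57 had 878, 695 and 857 units, with log2 ratios of -0.53 and -0.27. MRPS17 had 2915, 2542 and 3303 units (-0.39 and -0.06) and MRPS24 had 19696, 17366 and 21825 units (-0.37 and -0.09). For each of these, CA 50 μM was the lowest of the 3 arrays. The others lower by at least 0.32 at CA 50 μM were MRPL33, MRPS5, MRPS9 and MRPS22, with ratios of -0.35 to -0.37. The brighter MRPS5 probe, at 11523, 10247 and 12019 units (-0.36 and -0.18), differed from its dimmer probe (0.12 and 0.08). The MRPS22 spot on the untreated array lay in a disturbed area. MRPS25 was lower by nearly as much at both doses, with 2243, 2053 and 2151 units (-0.32 and -0.30). The bacterial S18 homologues MRPS18A, MRPS18B and MRPS18C differed from each other at CA 50 μM by their brightest probes. MRPS18B had 7561, 8294 and 9893 units (-0.06 and 0.15) and MRPS18C had 7134, 6864 and 8335 units (-0.25 and -0.01). The dimmer probe gave 0.24 and 0.27 for MRPS18B and 0.02 and 0.02 for MRPS18C. The MRPS18B ratio at CA 50 μM was above 0 in 5 scaled alternatives, up to 0.20.

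The ratio was lower for brighter probes in both families, and for other genes over the brighter part of the range. In the brightest of 20 classes of signal, which held 78 cytosolic and 7 mitochondrial genes, the 643 other genes had medians of -0.15 and -0.09 at CA 50 and 100 μM, against -0.25 and -0.26 for the cytosolic and -0.13 and -0.05 for the mitochondrial genes. Other genes had their highest medians, 0.05 and 0.02, in the seventh class from the dim end, and in the dimmest class -0.02 and -0.06. The 100 other genes that lay between the quartiles of cytosolic signal had medians of -0.20 and -0.18, and 11 and 16 of them were lower by at least 0.32, whereas the 42 cytosolic genes in that range had -0.28 and -0.24, with 14 and 9 lower by that much. All 42 were below 0 at both doses, as were 92 and 97 of the 100 other genes. At a mean scaled signal of 2 to 4.1 (log2), where both families had members, the 7 cytosolic genes had -0.19 and -0.03, the 37 mitochondrial genes -0.13 and -0.03 and 1692 other genes -0.11 and -0.06. In that range the family medians were closer to each other than over all members, and the part of brightness in the cytosolic shift was not tested.

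**Figure D4:**
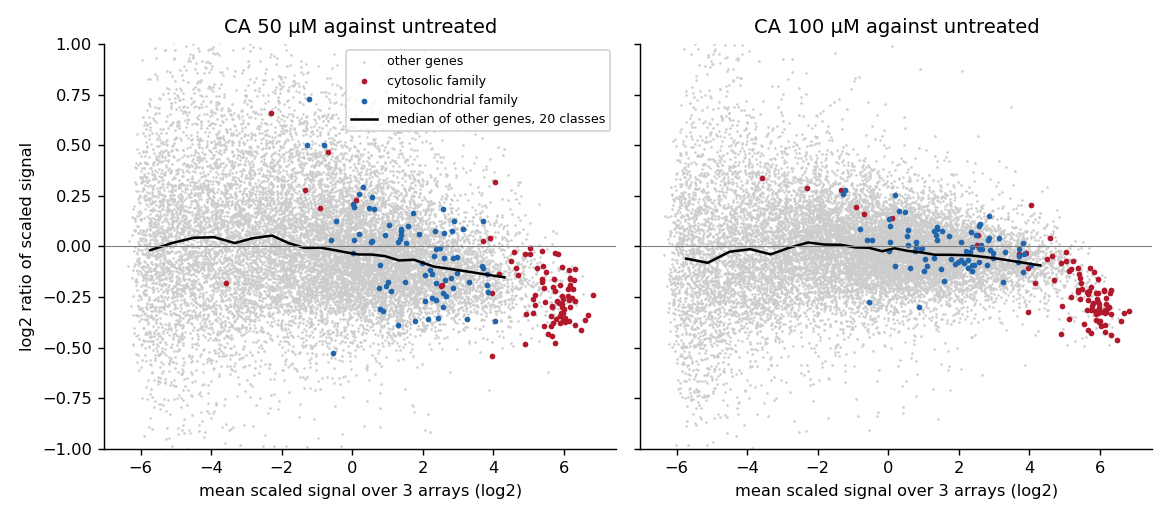
Log2 ratio of CA 50 μM (left) and CA 100 μM (right) over untreated against the mean scaled signal over the 3 arrays (log2), for the cytosolic family (red), the mitochondrial family (blue) and other measured genes (grey; those beyond a ratio of 1 in either direction lie outside the axis). The black line is the median of other genes in 20 classes of signal, which fell to -0.15 and -0.09 in the brightest class, and the cytosolic genes there had medians of -0.25 and -0.26 under this scaling, whereas the family medians were -0.03 and 0.00 after quantile normalization.

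Across the 86 cytosolic genes the ratio and the mean signal had a Pearson correlation of -0.66 and -0.83 (Spearman -0.42 and -0.70), and across the 77 mitochondrial genes of -0.48 and -0.33 (Spearman -0.39 and -0.29). These correlations are across genes of the same arrays, which are no independent replicates, and both axes contain the same signals. The probes of the cytosolic family showed the same trend. The 121 probes with a mean scaled signal of at least 4 had medians of -0.24 and -0.23, with 113 and 114 below 0, whereas the 32 dimmer ones had -0.0033 and 0.05, with 16 and 12 below 0. Among them, the 10 probes under 0 had 0.26 and 0.19.

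Error within the arrays was read from replicated spots and from genes with several probes. The 11 member probes printed 10 times, among them RPS6, RPL30, MRPL32 and MRPS6, had a median SD between spots of 0.054 and 0.050, and that of all 807 replicated probes was 0.064 at either dose. Of the bright RPL30 probe the ratios were -0.16 ± 0.047 and -0.10 ± 0.047 over 8 spots, and of MRPS6 -0.25 ± 0.054 and -0.11 ± 0.056 over 10 spots. This SD covers printing and scanning and leaves out the variation between cultures and hybridisations. The probes of the 37 cytosolic genes with several measured probes (104 probes) spanned a median range of 0.17 and 0.18, up to 0.78 for RPS2 and RPL28 at CA 50 μM and 0.67 for RPL23A at CA 100 μM. In 23 of these 37 genes at either dose all probes were below 0. RPS3A was an example of like probes, with 4 probes from -0.29 to -0.25 at CA 50 μM, and RPL28 one of unlike probes, from -0.30 to 0.48. In the 10 mitochondrial genes with several probes the median range was 0.17 and 0.08, and all probes were below 0 in 5 and 3 genes. No member had probes that differed by more than 1. Ribosomal protein genes have many processed pseudogenes, and probes that match these cannot be told apart from probes of the gene alone.

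The pyrimidine start, as annotated, did not separate cytosolic subunit genes by their ratio. The 45 measured genes with it had medians of -0.24 and -0.26 at CA 50 and 100 μM, and the 16 with another start had -0.26 and -0.24. The split rests on the annotated start alone. Genes whose run begins a few bases away, such as RPS28 and RPL10A, were counted with another start. Whether the pyrimidine tract itself goes with the ratio was therefore not tested. RPS28 and RPL36AL, with an annotated run of 3, were among the 16 genes lower by at least 0.32 at both doses. So were RPS12 and RPL34, whose long runs are printed above. Control of translation through the motif was not measured by these arrays.

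Genes of the same machinery outside the naming series were counted from lists of their own. Of the cytosolic ribosomal proteins under other names, FAU (-0.28 and -0.21), which encodes a fusion with a ubiquitin-like protein, lay with the family, and RACK1, a scaffold on the small subunit, had 24665, 35021 and 31784 units (0.32 and 0.13). The 37 measured of 39 genes listed as cytosolic translation factors or as TOP transcripts had medians of -0.02 and -0.02. Whether each listed gene has the TOP motif is not reported here, so the list does not stand for TOP transcripts as a class. Lower by at least 0.32 were 1 and 1 (2.70% and 2.70%), against 10.3% and 6.67% of all genes. Higher by that much were 4 and 1 (10.8% and 2.70%), against 13.2% and 5.8% of all genes. These transcripts were dimmer than the cytosolic subunit genes, with a median mean scaled signal of 3.63 (log2) against 5.78. The lowest were EEF1B2, an exchange factor of EEF1A1, at CA 50 μM (-0.36) and EEF1A1 at CA 100 μM (-0.40), which delivers tRNA to the ribosome, and the highest was EEF2, the translocase, with 5288, 9404 and 8018 units (0.64 and 0.36). The 13 genes of the mTORC1 and LARP1 list had medians of 0.04 and -0.05. At either dose 1 was lower and 1 higher by at least 0.32 (7.69% of the list each). Of all genes, 10.3% and 6.67% were lower and 13.2% and 5.8% higher by that much. The listed genes past the limit were DEPTOR (-0.41 and -0.37) and AKT1S1 (1.09 and 0.53, from a dim probe of 137, 332 and 233 units), both inhibitory partners of mTOR.

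On the mitochondrial side, the 5 ribosomal proteins under other names had medians of 0.13 and -0.00069, with AURKAIP1 (0.32 and -0.00069) as the single one past 0.32, at CA 50 μM. CHCHD1 was the lowest at CA 50 μM (-0.30), DAP3, which binds GTP, the lowest at CA 100 μM (-0.14), and PTCD3 the highest at CA 100 μM (0.31). The 23 mitochondrial translation factors had medians of -0.07 and -0.01. None was lower by at least 0.32, against 10.3% and 6.67% of all genes. Higher by that much were 2 and 1 (8.70% and 4.35%), against 13.2% and 5.8% of all genes. The highest were ERAL1 at CA 50 μM (0.48), a GTPase of small-subunit assembly, and MTRFR at CA 100 μM (0.65), and the lowest were SLIRP at CA 50 μM (-0.26) and its partner LRPPRC at CA 100 μM (-0.15).

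The scaling of the arrays decided how low the cytosolic family stood. Alternatives that adjust arrays along the whole range of signal gave small medians, with -0.05 and -0.07 after cyclic loess and those after quantile normalization above. The deposited log2 values gave -0.02 and -0.000102, and over all genes their ratios differed from those after quantile normalization by a median of 0.00074 and 0.0012, so that they are no separate alternative in effect. Those that shift each array by a single number gave larger ones, with -0.28 and -0.25 after centring on the median of measured probes. Spots of the CA 100 μM array in disturbed areas belonged to 6 cytosolic genes (RPL5, RPL10A, RPL23, RPL27A, RPL30 and RPS12) and 8 mitochondrial ones, and the cytosolic medians without these areas were -0.24 and -0.23.

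**Figure D5:**
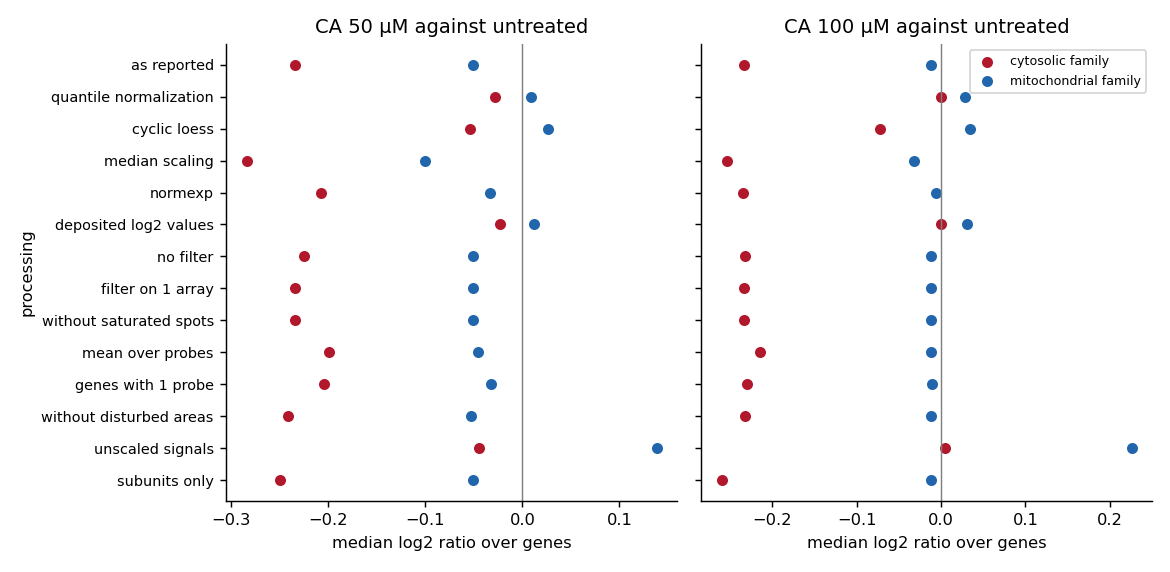
Median log2 ratio over genes of the cytosolic (red) and the mitochondrial family (blue) at CA 50 μM (left) and CA 100 μM (right) against untreated, as reported (top row) and under each alternative processing. The red point lies left of the blue point in every row, but the cytosolic median ran from -0.28 to -0.02 at CA 50 μM and from -0.26 to 0.0044 at CA 100 μM, and the mitochondrial median was above 0 after quantile normalization, after cyclic loess, in the deposited values and, like the median of all genes, without scaling.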

How the data were processed

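Cy3-labelled RNA of Huh7 cells without CA, with CA at 50 μM or with CA at 100 μM (24 h) was hybridised, 1 array per group, and groups were taken from the treatment label. The authors read the images with Agilent Feature Extraction 11.0.1.1, per the submitters' processing notes. The deposited processed signal is an intensity after background subtraction and was not scaled between arrays. A deposited table of log2 values, whose method is not given in the sources used here, served as an alternative. The deposited files also hold flags for outliers, saturation and background, which are codes and not measurements.

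Control spots and outlier spots were left out. From the log2 processed signal, the 75th percentile of its own array was subtracted, and spots of a probe were averaged. A probe was measured when at least 50% of its spots were well above background on all 3 arrays, and a gene took its brightest measured probe. Symbols came from RefSeq accessions through a GRCh38.p14 table, whereas the array design was annotated on GRCh37, and coordinates are those of RefSeq starts. A spot lay in a disturbed area when the window of 17 rows and 7 columns around it held 5 or more dim probes, making up 25% or more of the dim ones, with a signal 4-fold or more above both other arrays. The members and lists were chosen with earlier results of these data known. Named by rule were the 3 highest and 3 lowest genes per family and dose, paralogue pairs, stalk proteins, unmeasured members and the extremes of the other lists. Further genes (RPS6, RPL19, RPL11, RPS3, RPL29, those of replicated or discordant probes and those named in counts) were chosen after their values were seen. Some genes that the rule or the lists hold are not reported here. Since there was 1 array per group, the number of arrays limits the precision, and every fold is a description. The steps were tested on simulated data. Alternatives comprised other scalings (quantile normalization, the deposited values, cyclic loess, the median, unscaled signals), normexp with an offset of 50, a filter on 1 array or none, other probe rules (the mean over probes, genes with 1 probe), and runs without saturated spots, without disturbed areas or with subunits only. Python 3.11.15, numpy 2.4.6, pandas 2.3.3, R 4.3.3 and limma 3.58.1 were used.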

Additional observations from a re-analysis of the deposited data

How the results depend on the processing

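No paired analysis was possible because each group had 1 array, and no replicate could be left out. Of the choices, that of the scaling moved the family medians most. After quantile normalization the cytosolic medians at CA 50 and 100 μM were -0.028 and 0.00 and the mitochondrial ones 0.0092 and 0.029, with differences of -0.037 and -0.029, and 3 and 2 cytosolic genes and 3 mitochondrial genes (CA 50 μM) were lower by at least 0.32. The deposited log2 values gave -0.023 and -0.000102, 0.012 and 0.031, differences of -0.035 and -0.031, and counts of 3, 2 and 3. Cyclic loess gave -0.054 and -0.072, 0.026 and 0.035, differences of -0.080 and -0.11, and counts of 1, 0 and 2. Unscaled signals, tried only with the results in view, gave -0.045 and 0.0044, 0.14 and 0.23, and counts of 1, 0 and 1 lower. Higher by at least 0.32 were 6 and 7 cytosolic and 12 and 12 mitochondrial genes, while all genes had medians of 0.15 and 0.21. The share of all genes past the limit was counted for the reported scaling only, so no count in this section has that background. Quantile normalization gives all arrays the same distribution of values by construction. A shift shared by genes that fill much of the top ranks, as the cytosolic ones did, can thereby be removed. Medians near 0 after it therefore do not show that the family was unchanged. Scaling by a single number leaves any trend of ratio with signal in place, so medians below 0 after it do not show that the family was lowered. The 100 other genes between the quartiles of cytosolic signal had medians of -0.20 and -0.18 under the reported scaling. With 1 array per group these readings cannot be told apart. The probe rule changed counts, with 11 and 10 cytosolic genes lower among genes with 1 probe, where fewer genes were counted, and 12 lower at CA 100 μM by the mean over probes. The single cytosolic gene past the limit on the higher side at CA 100 μM, RPL27A, left a count of 0 after centring on the median, after normexp and without disturbed areas, 1 mitochondrial gene was lower at CA 100 μM after normexp, and 0 cytosolic genes were higher at CA 50 μM among subunits only, which was also tried with the results in view. RPS2 at CA 50 μM turned to 0.053 after normexp and 0.0041 by the mean over probes. Of the 38 named genes, 30 kept their sign at CA 50 μM and 27 at CA 100 μM in all scaled alternatives that gave a value. Without scaling every gene is higher by 0.19 and 0.24 by construction, and then 28 and 24 did. The cause of these shifts was not tested. Dim probes were limited by their signal over background.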
